A study of Homo sapiens with 18 samples.

Results

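The hexosamine pathway genes described here are the 9 genes GFPT1, GFPT2, GNPNAT1, PGM3, UAP1, UAP1L1, NAGK, OGT and MGEA5, out of 19849 genes in the expression table. They were chosen by symbol, and the set was put forward because GFPT2 was higher in the mesenchymal state of all 3 cell lines, so the GFPT2 changes are given as a description without a test and the counts below cover the other 8 genes. The data were Affymetrix U133 Plus 2.0 array profiles of A549, HCC827 and NCI-H358, established human lung cancer lines of which HCC827 carries mutant EGFR. Each line was profiled as parental cells and as mesenchymal cells derived from it with 2 ng/ml TGFβ, with 3 arrays per group and 18 arrays in all. The exposure is given as 3 weeks, but the study's culture methods state a shorter range of weeks for A549 than for HCC827 and NCI-H358. Exposure time may therefore have differed between the lines. The mesenchymal cells were moved to medium lacking TGFβ on the day before lysis, and all groups otherwise shared the same glutamine-containing serum medium. Each line stands for a single tumor, and the 3 arrays of a group came from samples prepared together, so the p-values measure the spread between these samples. Long TGFβ exposure and the mesenchymal state cannot be told apart in this design.

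The hexosamine pathway branches from glycolysis at fructose 6-phosphate and builds UDP-N-acetylglucosamine (UDP-GlcNAc), the sugar donor for N-glycans, hyaluronan and the O-GlcNAc mark on intracellular proteins. GFPT1 and GFPT2 encode alternative forms of the enzyme that transfers the amide nitrogen of glutamine to fructose 6-phosphate, the committed and usually rate-limiting step. GNPNAT1 then acetylates the product, PGM3 moves its phosphate and UAP1 completes UDP-GlcNAc, while NAGK returns recycled N-acetylglucosamine to the pathway. OGT places O-GlcNAc on serine and threonine residues, and MGEA5, now named OGA, removes it.

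The stretches just upstream of the RefSeq starts of GFPT1 and GFPT2 are shown because these genes encode the same enzymatic step and behaved differently in the arrays. Both are 250-base windows of GRCh38.p14, read on the minus strand, at chr2:69387228-69387477 for GFPT1 and chr5:180353337-180353586 for GFPT2. Capitals mark the core of the element bound by factors of the unfolded protein response, GACGTGG, which appears here as its reverse complement.
GFPT1 promoter: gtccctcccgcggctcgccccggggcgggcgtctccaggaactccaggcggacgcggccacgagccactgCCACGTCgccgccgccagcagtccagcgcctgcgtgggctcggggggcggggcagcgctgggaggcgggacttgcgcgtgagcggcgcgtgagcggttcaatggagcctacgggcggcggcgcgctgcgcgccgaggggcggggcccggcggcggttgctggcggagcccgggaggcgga
GFPT2 promoter: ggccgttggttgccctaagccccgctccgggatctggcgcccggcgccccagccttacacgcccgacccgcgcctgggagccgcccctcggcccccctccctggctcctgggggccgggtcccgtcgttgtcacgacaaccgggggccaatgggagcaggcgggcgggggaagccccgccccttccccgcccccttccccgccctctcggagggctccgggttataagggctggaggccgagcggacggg
GFPT1 holds the GACGTGG core once in this window, and 2.62% of 35116 RefSeq promoter windows of the same length hold it on either strand. The GFPT2 window holds none of the 4 motifs searched on both strands, which were the short SMAD box CAGAC, the AP-1 site TGANTCA, the E-box CACCTG bound by ZEB and SNAI repressors, and GACGTGG. Both windows were rich in G and C, at 80.0% for GFPT1 with 41 CpG and 76.8% for GFPT2 with 27 CpG, against a median of 58.0% over all windows. Of the 8 pathway genes with an entry in the RefSeq table, 4 held CAGAC (PGM3, UAP1, NAGK and MGEA5; 38.0% of all windows), 2 held CACCTG (PGM3 and NAGK; 17.5%), 2 held GACGTGG (GFPT1 and PGM3) and 0 held TGANTCA (6.57%). PGM3, UAP1 and NAGK have several annotated starts, each of which was searched, and CAGAC and CACCTG overlapped at 1 place in PGM3. A gene was counted if any of its windows held the motif, whereas the shares are per single window. The shares are therefore not a like background for these genes. A match is a run of letters and not evidence of binding.

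The state labels were checked against marker genes. In every line all 5 epithelial markers (CDH1, EPCAM, KRT8, KRT18 and KRT19) were lower and all 5 mesenchymal markers (VIM, CDH2, FN1, ZEB1 and SNAI2) were higher in mesenchymal cells, with log2 differences for CDH1 of -5.81, -2.95 and -3.94 in A549, HCC827 and NCI-H358. KRT8 and KRT18 nevertheless stayed among the brightest genes of the mesenchymal arrays. NKX2-1, a lung lineage factor, was dim in both A549 groups with log2 means of 3.67 and 3.90. It was brighter in HCC827, at 9.18 and 9.64, and fell from 8.62 to 7.56 in NCI-H358 (limma adjusted p = 0.000154). The lung marker NAPSA fell from 10.87 to 6.16 in HCC827 (limma adjusted p = 1.59e-14) and was not called in the other lines. The lung markers SFTPB and SFTPC were not called in any line. The leukocyte gene PTPRC had log2 means from 2.83 to 3.18 in all groups. Array medians ran from 6.31 to 6.47 log2 units. The first parental array of each line carries a title number apart from the rest, and calls that are lost or gained without all 3 of them are given in the closing section. In such bulk profiles, fewer cells expressing a gene and less RNA per cell cannot be told apart.

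GFPT2 was higher in the mesenchymal cells of all 3 lines, and the size of its rise differed widely. In A549, its log2 level was 8.88, 8.74 and 8.80 on the parental arrays and 9.93, 10.05 and 9.96 on the mesenchymal arrays. HCC827 started far lower, with parental levels of 6.17, 5.79 and 6.28 and mesenchymal levels of 9.43, 9.47 and 9.68. NCI-H358 lay between them, with 7.69, 7.68 and 7.50 in parental cells and 9.56, 9.73 and 9.61 in mesenchymal cells. No parental array reached a mesenchymal array of the same line, as was the case for 52.4%, 51.2% and 51.6% of all genes in A549, HCC827 and NCI-H358. The differences were 1.17 (2.25-fold) in A549, 3.45 (10.9-fold) in HCC827 and 2.01 (4.03-fold) in NCI-H358. The set was put forward because of this rise, so these values are a description and not support for it. The parental group means spanned 6.08 to 8.80, whereas the mesenchymal means lay between 9.53 and 9.98. In order, mesenchymal A549 was highest, followed by mesenchymal NCI-H358 and mesenchymal HCC827, whose arrays overlapped, then parental A549, parental NCI-H358 and parental HCC827.

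**Figure D1:**
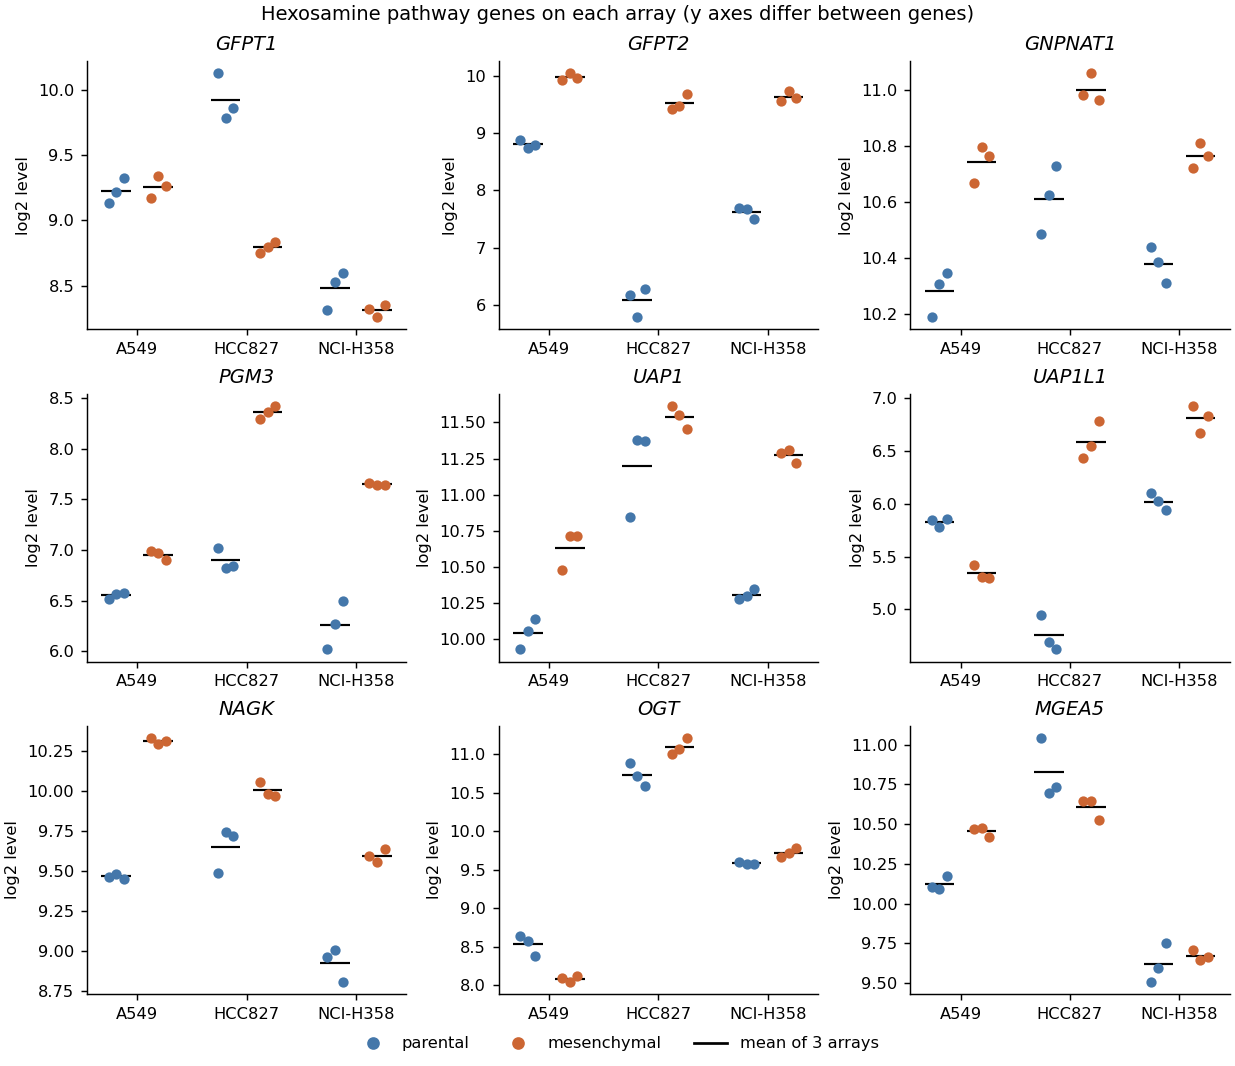
Log2 level of each of the 9 hexosamine pathway genes (y axis, RMA log2 intensity with a separate scale per gene) in parental (blue) and mesenchymal (orange) cells of A549, HCC827 and NCI-H358 (x axis). Points are single arrays and lines are means of 3 arrays. GFPT2, whose rise led to the choice of the set, was above all parental arrays of the same line on every mesenchymal array. GFPT1 separated downward in HCC827, where its mean went from 9.92 to 8.79.

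GFPT1, which encodes the more widely expressed form of the same enzyme, did not share this pattern. It fell in HCC827 and was not called in the other lines. Its log2 level in HCC827 was 10.13, 9.78 and 9.86 in parental cells and 8.75, 8.80 and 8.83 in mesenchymal cells, a difference of -1.13 ± 0.09 (SE, 2.19-fold lower; limma adjusted p = 1.52e-08). All parental arrays of HCC827 lay above all mesenchymal arrays. In A549, parental levels of 9.13, 9.21 and 9.33 overlapped with mesenchymal levels of 9.17, 9.34 and 9.26, and the difference of 0.03 had a 95% interval from -0.16 to 0.23 (limma adjusted p = 0.811). In NCI-H358, parental levels of 8.31, 8.53 and 8.60 also overlapped with mesenchymal levels of 8.32, 8.26 and 8.35, and the difference of -0.17 had an interval from -0.36 to 0.02 (limma adjusted p = 0.164). Neither interval reaches the HCC827 value. The lowest of the NCI-H358 parental values, 8.31, belonged to the first array, and without it the difference in that line was -0.25 and passed the test (limma adjusted p = 0.0444). The change in HCC827 differed from that in A549 by -1.16 ± 0.13 (limma adjusted p = 1.27e-06), and the change in NCI-H358 exceeded that in HCC827 by 0.96 ± 0.13 (limma adjusted p = 1.36e-05). Parental HCC827 had the highest GFPT1 level and the lowest GFPT2 level of the 6 groups. On the same arrays, GFPT2 relative to GFPT1 shifted upward by 1.14, 4.58 and 2.18 log2 units in A549, HCC827 and NCI-H358, which describes unequal change and not the relative abundance of the transcripts.

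Counting the 8 genes other than GFPT2, 5 were higher and 2 lower upon EMT in A549, 6 were higher and 2 lower in HCC827, and 5 were higher and 0 lower in NCI-H358 (limma, adjusted p below 0.05). Over all genes of the table the called shares were 43.4% in A549 (16.6% higher and 26.8% lower), 45.8% in HCC827 (20.8% and 25%) and 41.4% in NCI-H358 (21.5% and 19.8%). The parental and mesenchymal arrays did not overlap for 7, 8 and 6 of the 8 genes, against 52.4%, 51.2% and 51.6% of all genes. Since the pathway was selected with these comparisons in view, nothing is read from these counts. For A549, HCC827 and NCI-H358 in turn, the median log2 difference of the 8 genes was 0.37, 0.36 and 0.53, beside -0.02, 0.01 and 0.02 over all genes. GNPNAT1, PGM3, UAP1 and NAGK were higher in all 3 lines and 0 of the 8 were lower in all 3, while 4.31% and 6.14% of all genes met these rules. Under the stricter rule of the study, an adjusted p below 1e-05 with a fold above 5, 0 of the 8 were called in any line, compared with 1.9%, 2.95% and 2.17% of all genes in A549, HCC827 and NCI-H358.

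**Figure D2:**
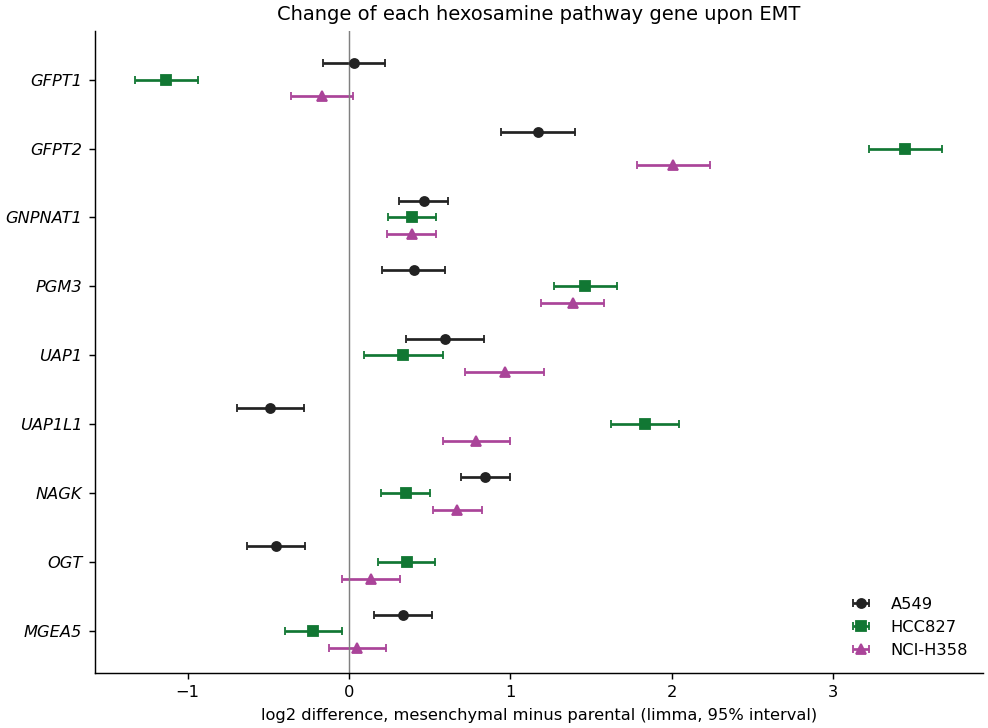
Log2 difference between mesenchymal and parental cells (x axis, limma estimate with 95% interval) for each hexosamine pathway gene (y axis) in A549 (circles), HCC827 (squares) and NCI-H358 (triangles), 3 arrays per group. GNPNAT1 lay between 0.39 and 0.46 in all lines, whereas UAP1L1 ran from -0.49 in A549 to 1.84 in HCC827. GFPT2 is shown as a description, and its intervals are no test because its rise led to the choice of the set.

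Of the steps after GFPT, the acetyltransferase GNPNAT1 rose by nearly the same amount in each line. It was 10.19, 10.31 and 10.35 in parental and 10.67, 10.80 and 10.77 in mesenchymal A549, a rise of 0.46 ± 0.07 (SE, limma adjusted p = 4.17e-05). In HCC827 it went from 10.48, 10.62 and 10.73 to 10.98, 11.06 and 10.96, a rise of 0.39 ± 0.07 (limma adjusted p = 0.000189), and in NCI-H358 from 10.44, 10.39 and 10.31 to 10.72, 10.81 and 10.77, also 0.39 ± 0.07 (limma adjusted p = 0.000235). All mesenchymal arrays were above the parental arrays of their line. No difference in change between lines passed the test, and the 95% intervals ran from -0.29 to 0.14 for HCC827 and likewise for NCI-H358 against A549, and from -0.21 to 0.21 for NCI-H358 against HCC827.

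PGM3, the phosphoacetylglucosamine mutase of the next step, rose most strongly in HCC827 and NCI-H358. In HCC827, its log2 level was 7.02, 6.83 and 6.84 in parental and 8.30, 8.36 and 8.43 in mesenchymal cells, a rise of 1.47 ± 0.09 (SE, 2.76-fold; limma adjusted p = 6.03e-10). In NCI-H358, 6.02, 6.27 and 6.50 became 7.66, 7.64 and 7.65, a rise of 1.39 ± 0.09 (2.62-fold; limma adjusted p = 1.59e-09). The NCI-H358 parental arrays were spread more widely than those of any other group for this gene, but remained well below the mesenchymal arrays. In A549, 6.52, 6.57 and 6.57 became 6.99, 6.97 and 6.91, a smaller rise of 0.40 ± 0.09 (limma adjusted p = 0.00179). The rise exceeded that of A549 by 1.06 ± 0.13 in HCC827 (limma adjusted p = 4.07e-06) and by 0.99 ± 0.13 in NCI-H358 (limma adjusted p = 1.01e-05). Between NCI-H358 and HCC827 it differed by -0.08, with a 95% interval from -0.36 to 0.20.

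UAP1, the pyrophosphorylase that completes UDP-GlcNAc, was higher in mesenchymal cells of all lines. In NCI-H358 it went from 10.28, 10.30 and 10.35 to 11.29, 11.31 and 11.22, a rise of 0.96 ± 0.11 (SE, limma adjusted p = 2.25e-06). In A549 it went from 9.93, 10.05 and 10.14 to 10.48, 10.72 and 10.71, a rise of 0.59 ± 0.11 (limma adjusted p = 0.000407). In HCC827 the parental levels were 10.85, 11.38 and 11.37 and the mesenchymal levels 11.62, 11.55 and 11.45, with a difference of 0.34 ± 0.11 (limma adjusted p = 0.0226). The low value of 10.85 belonged to the first parental array, and without it the difference was 0.16 (limma adjusted p = 0.135). The call was also lost without the first or second mesenchymal array (0.30 and 0.33, limma adjusted p = 0.0797 and 0.0544). The rise in NCI-H358 exceeded that in HCC827 by 0.63 ± 0.16 (limma adjusted p = 0.00524), and its excess over A549 of 0.37 did not pass the test (limma adjusted p = 0.0783) but was called with an intensity trend (limma adjusted p = 0.0357) and without the 3 parental arrays numbered apart (0.41, limma adjusted p = 0.0105).

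UAP1L1, a sequence relative of UAP1, changed in opposite directions in A549 and in the other lines. In A549 it fell, from 5.84, 5.78 and 5.86 to 5.42, 5.30 and 5.30, a difference of -0.49 ± 0.10 (SE, limma adjusted p = 0.000632). In HCC827 it rose from 4.94, 4.69 and 4.62 to 6.43, 6.55 and 6.78, by 1.84 ± 0.10 (3.57-fold; limma adjusted p = 7.79e-11), and in NCI-H358 from 6.11, 6.02 and 5.94 to 6.93, 6.67 and 6.83, by 0.79 ± 0.10 (limma adjusted p = 4.08e-06). The groups of a line did not overlap in any of these comparisons. Each pair of lines differed in this change, by 2.32 ± 0.14 for HCC827 against A549, 1.28 ± 0.14 for NCI-H358 against A549 and -1.05 ± 0.14 for NCI-H358 against HCC827 (limma adjusted p = 6.93e-10, 1.15e-06 and 1.3e-05). The probe set is dim, at the 26.4th to 55.3rd percentile of the genes by group, and the lowest group mean was 4.75 in parental HCC827, under the level of 5 below which genes were taken as dim. The table used here gives no detection calls, so the fold in HCC827 and the line differences that use this group may be lower bounds.

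NAGK, the kinase of the recycling route, rose in all lines, with the highest value in A549. Its log2 level there was 9.47, 9.48 and 9.46 in parental and 10.33, 10.30 and 10.31 in mesenchymal cells, a rise of 0.85 ± 0.07 (SE, limma adjusted p = 4.01e-08). In NCI-H358, 8.97, 9.01 and 8.81 became 9.60, 9.56 and 9.64, a rise of 0.67 ± 0.07 (limma adjusted p = 6.31e-07), and in HCC827, 9.49, 9.75 and 9.72 became 10.06, 9.98 and 9.97, a rise of 0.35 ± 0.07 (limma adjusted p = 0.000544). The groups of each line were separate. The rise in HCC827 was smaller than in A549 by 0.49, given as a difference of -0.49 ± 0.10 (limma adjusted p = 0.000746). The rises in A549 and NCI-H358 were not shown to differ (-0.17, 95% interval -0.39 to 0.04). In HCC827 it was also smaller than in NCI-H358 by 0.32 ± 0.10 (limma adjusted p = 0.0193), and this call was lost when any of 3 arrays was left out, with 0.27 and 0.28 (limma adjusted p = 0.0564 and 0.0507) without the second or last HCC827 parental array and 0.26 (limma adjusted p = 0.0545) without the last NCI-H358 parental array.

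The enzymes that add and remove O-GlcNAc did not change in the same direction across lines. OGT fell in A549, from 8.65, 8.58 and 8.39 to 8.09, 8.04 and 8.12, a difference of -0.45 ± 0.08 (SE, limma adjusted p = 0.000282), and rose in HCC827, from 10.89, 10.72 and 10.59 to 11.00, 11.07 and 11.21, by 0.36 ± 0.08 (limma adjusted p = 0.00185). In NCI-H358, levels of 9.61, 9.58 and 9.57 in parental and 9.67, 9.72 and 9.79 in mesenchymal cells did not overlap, but the difference of 0.14 did not pass the test (limma adjusted p = 0.221, 95% interval -0.04 to 0.32). The OGT change differed from that in A549 by 0.81 ± 0.12 in HCC827 and by 0.59 ± 0.12 in NCI-H358 (limma adjusted p = 2.76e-05 and 0.000615).

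MGEA5 showed the reverse directions in A549 and HCC827. In A549 it rose from 10.10, 10.09 and 10.17 to 10.47, 10.48 and 10.42, by 0.33 ± 0.08 (SE, limma adjusted p = 0.0036). In HCC827, 11.04, 10.70 and 10.74 became 10.64, 10.65 and 10.52, a difference of -0.22 ± 0.08 (limma adjusted p = 0.0417). The highest of these values again belonged to the first HCC827 parental array, and without it the difference was -0.11 (limma adjusted p = 0.239). The call was also lost without the first, second or last HCC827 mesenchymal array (-0.24, -0.24 and -0.18, limma adjusted p = 0.058, 0.0571 and 0.142). In NCI-H358 the arrays overlapped at 9.51, 9.60 and 9.75 against 9.71, 9.64 and 9.67 (0.05, 95% interval -0.13 to 0.23, limma adjusted p = 0.691). The change in HCC827 was below that in A549 by 0.55, a difference of -0.55 ± 0.12 (limma adjusted p = 0.00106). The probe sets of OGT and MGEA5 are of a class that can match several transcripts.

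Across the lines, 6 of the 8 genes changed unequally in HCC827 and A549, 3 in NCI-H358 and A549, and 4 in NCI-H358 and HCC827 (limma, adjusted p below 0.05). In HCC827 relative to A549, 3 changes were higher and 3 lower, with 42.2% of all genes called (22.7% higher and 19.5% lower). In NCI-H358 relative to A549, 3 were higher and 0 lower, with 42.8% of all genes called (25.7% and 17.1%), and in NCI-H358 relative to HCC827, 3 were higher and 1 lower, with 37.9% called (21.1% and 16.8%). Leaving out single arrays added calls for UAP1 in HCC827 against A549 without the first HCC827 parental array (-0.43, limma adjusted p = 0.00522), for MGEA5 in NCI-H358 against A549 without the first NCI-H358 parental array (-0.34, limma adjusted p = 0.0379), for OGT in NCI-H358 against HCC827 without the first HCC827 parental array (-0.30, limma adjusted p = 0.0438), and for MGEA5 in the last pair without the second HCC827 or the last NCI-H358 parental array (both 0.34, limma adjusted p = 0.041 and 0.0353). GNPNAT1 was the 1 gene of the 8 for which none of these tests passed. Comparisons of changes that share a line also share its arrays.

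In the parental state the lines already differed in these genes. HCC827 parental cells had higher levels than A549 parental cells for 7 of the 8 genes and lower levels for UAP1L1 (57.1% of all genes differed in this comparison, 27.2% higher and 29.8% lower). All 8 also differed between parental NCI-H358 and parental HCC827, where 7 were lower in NCI-H358 and UAP1L1 was higher by 1.27 ± 0.10 (SE, limma adjusted p = 6.89e-09; 52.6% of all genes, 27.1% higher and 25.5% lower). Parental NCI-H358 and A549 differed in 5 genes, of which OGT was higher and GFPT1, PGM3, NAGK and MGEA5 were lower in NCI-H358 (57.9% of all genes, 28.5% higher and 29.4% lower). UAP1 was not called there (0.27, limma adjusted p = 0.0557) but was without the last A549 parental array (0.32, limma adjusted p = 0.0477). UAP1 was also called with an intensity trend and with dim genes left out (limma adjusted p = 0.0237 and 0.0445). Student's t-test called UAP1 (adjusted p = 0.0291) and UAP1L1 (0.19, adjusted p = 0.0439) there. In these parental comparisons, 3 small differences depended on single arrays. All 3 were also lost with Student's t-test (adjusted p = 0.153 for NAGK, 0.168 for PGM3 and 0.0873 for GNPNAT1). The NAGK call was lost with centred arrays too (limma adjusted p = 0.144). NAGK was higher by 0.18 in HCC827 than in A549 (limma adjusted p = 0.0371), and this call was lost without any 1 of the 3 A549 arrays (adjusted p of 0.0746, 0.0652 and 0.0807) or without the second or last HCC827 array (0.159 and 0.13). PGM3 was lower in NCI-H358 than in A549, at -0.29 (limma adjusted p = 0.012), but by -0.17 without the first NCI-H358 parental array (limma adjusted p = 0.0879). GNPNAT1 was also lower in NCI-H358 than in HCC827, at -0.23 (limma adjusted p = 0.0099), and at -0.18 without the last HCC827 parental array (limma adjusted p = 0.0607).

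In the mesenchymal state, 7 of the 8 genes differed between HCC827 and A549, 7 between NCI-H358 and A549 and 6 between NCI-H358 and HCC827. Of the 7 in HCC827 against A549, 5 were higher and 2 lower (56.6% of all genes, 28.3% higher and 28.3% lower). Of the 7 in NCI-H358 against A549, 4 were higher and 3 lower (58.8% of all genes, 31.4% higher and 27.4% lower). Of the 6 in NCI-H358 against HCC827, 0 were higher and 6 lower (52.6% of all genes, 28.2% higher and 24.4% lower), and UAP1L1 was called higher without the last HCC827 mesenchymal array (0.32, limma adjusted p = 0.0114) or the second NCI-H358 mesenchymal array (0.30, limma adjusted p = 0.0313). OGT set the lines apart most, being 3.01 ± 0.08 (SE) higher in mesenchymal HCC827 than in mesenchymal A549 (limma adjusted p = 7.62e-15) and 2.20 ± 0.08 higher in the parental cells (limma adjusted p = 4.27e-13). Among the 8 genes other than GFPT2, this mesenchymal difference was the 1 value that met the stricter rule of the study, which 4.51% of all genes met there. UAP1 stood highest in mesenchymal HCC827 at 11.54, and mesenchymal NCI-H358 at 11.27 was not separated from parental HCC827 at 11.20. PGM3 was highest in mesenchymal HCC827 at 8.36 and lowest in parental NCI-H358 at 6.26, with overlap between mesenchymal A549 and parental HCC827. For NAGK the order ran from mesenchymal A549 at 10.31 to parental NCI-H358 at 8.93, and parental HCC827 overlapped with mesenchymal NCI-H358. MGEA5 was highest in parental HCC827 at 10.82 and lowest in the NCI-H358 groups, which overlapped.

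Over the 18 arrays the genes of the middle steps moved together, with Pearson r of 0.877 for GNPNAT1 and UAP1, 0.858 for GNPNAT1 and PGM3 and 0.82 for PGM3 and UAP1. GFPT1 ran against UAP1L1 (r = -0.873) and with MGEA5 (r = 0.817), and its r with GFPT2 was -0.513. These values describe 18 arrays of only 6 groups that share line and state. The genes most like GFPT2 in level over the 18 arrays were PMEPA1 (r = 0.988), IL11 (0.984), KLHDC5 (0.979), MRAS (0.975) and CXCR7 (0.969). PMEPA1, an inhibitor of TGFβ signaling, was higher in A549, HCC827 and NCI-H358 by 1.29, 4.52 and 2.92, and IL11, a cytokine, by 3.23, 6.68 and 4.56. Both were picked for their likeness to GFPT2 on these arrays, so the order of lines that they share with it is not a separate result. The genes most like GFPT1 were KIAA0753 (r = 0.969), MPP5 (0.965), CYBA (0.963), REL (0.958) and CAPZA2 (0.958). CYBA, a subunit of NADPH oxidases, differed by -1.12 in HCC827, -0.54 in NCI-H358 and 0.21 in A549. These likenesses were ranked over all genes and carry no test.

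**Figure D3:**
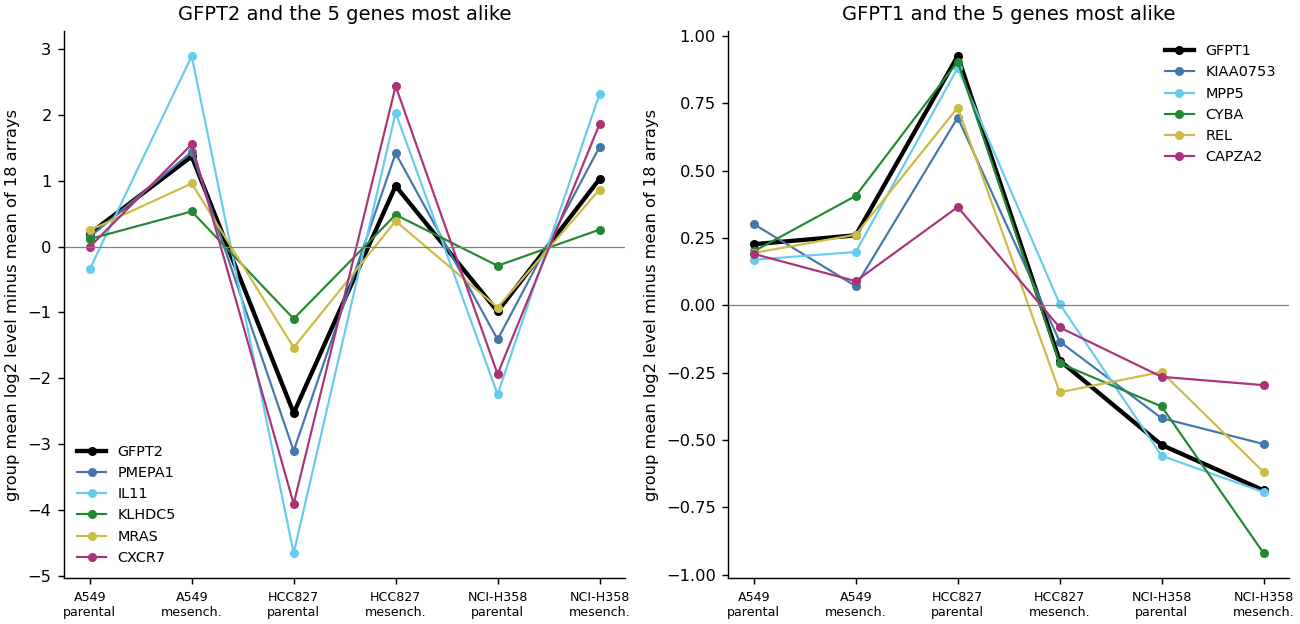
Log2 levels relative to each gene's own mean over the 18 arrays (y axis), averaged over 3 arrays for each of the 6 groups (x axis), for GFPT2 and the 5 genes most like it (left) and for GFPT1 and the 5 genes most like it (right). Parental HCC827 was lowest for GFPT2 at a level of 6.08 and highest for GFPT1 at 9.92.

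Related genes were taken as 6 lists with 49 genes in all, of which 5 lists hold genes that feed the pathway, use its product or recover amino sugars and the other holds 12 ER stress genes. Of these, 14 were higher and 14 lower upon EMT in A549, 11 were higher and 12 lower in HCC827, and 15 were higher and 11 lower in NCI-H358, beside the called shares of 43.4%, 45.8% and 41.4% over all genes. The median differences were 0.02, 0.02 and 0.03 on the log2 scale, beside -0.02, 0.01 and 0.02 over all genes. Beside the counts per list below, 16.6%, 20.8% and 21.5% of all genes were called higher. The shares called lower were 26.8%, 25% and 19.8%. Nothing is read from the list counts, because the lists were chosen with earlier results of these data known.

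Of 9 genes for the supply of fructose 6-phosphate and glutamine, 3, 4 and 2 were higher and 3, 2 and 3 lower in A549, HCC827 and NCI-H358. The glucose transporter SLC2A3 was higher in all lines, by 0.78, 1.17 and 0.64 (limma adjusted p = 0.000556, 6.67e-06 and 0.00287). The glucose transporter SLC2A1, added after its values were seen, was lower in A549 (-1.44, limma adjusted p = 1.78e-08). It was not called in HCC827 (-0.19) or NCI-H358 (0.07). GPI, which interconverts glucose 6-phosphate and fructose 6-phosphate, was lower in all lines, with differences of -0.93, -1.27 and -0.37 (limma adjusted p = 7.27e-09, 8.22e-11 and 0.000288). GLUL, the glutamine synthetase, was picked out after its values were seen and went in opposite directions, with differences of 2.16 for A549, 0.55 for HCC827 and -2.28 for NCI-H358 (limma adjusted p = 7.2e-13, 1.91e-05 and 4.29e-13).

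Among 11 genes listed for the use of UDP-GlcNAc in N-glycans, 0, 2 and 3 were higher and 4, 3 and 3 lower in A549, HCC827 and NCI-H358. MGAT4A, a branching N-acetylglucosaminyltransferase, was lower in all lines, at -0.58, -2.51 and -0.95 (limma adjusted p = 0.00184, 6.85e-11 and 1.62e-05). Its A549 call was lost with Student's t-test (adjusted p = 0.0524). Its mean levels were dim, under 5, in mesenchymal HCC827 (4.11) and in both NCI-H358 groups (4.75 parental and 3.81 mesenchymal). The fall in NCI-H358 thus lies among dim values, and the size of the fall in HCC827 may be a lower bound. Of 3 hyaluronan synthases, HAS3 was lower in all lines, at -3.80, -1.75 and -1.50 (limma adjusted p = 2.11e-14, 3.9e-10 and 3.83e-09). HAS2, also noted after its values were seen, was higher in A549 by 2.35 ± 0.13 (SE, limma adjusted p = 9.86e-11), with differences of -0.00 in HCC827 and 0.01 in NCI-H358, where its mean levels were 3.72 and 4.32. Of 6 genes of the sialic acid branch, 1, 0 and 1 were higher and 3, 2 and 2 lower. Of 8 genes that recover or break down amino sugars, 1, 1 and 3 were higher and 3, 2 and 2 lower.

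The 12 ER stress genes were listed because the promoter element GACGTGG belongs to that response. Of them, 8 were higher and 0 lower in A549, 4 higher and 2 lower in HCC827, and 6 higher and 0 lower in NCI-H358. Over all genes, 16.6%, 20.8% and 21.5% were called higher and 26.8%, 25% and 19.8% lower. The median differences of the list were 0.35, 0.16 and 0.35, beside -0.02, 0.01 and 0.02 over all genes. HSPA5, the main ER chaperone, was higher by 0.61, 0.57 and 0.80 (limma adjusted p = 1.37e-05, 2.3e-05 and 4.8e-07). HYOU1, another ER chaperone, was higher by 0.40, 0.81 and 0.53 (limma adjusted p = 7.77e-05, 1.59e-08 and 3.32e-06). The part of these genes in the pathway changes was not tested.

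**Figure D4:**
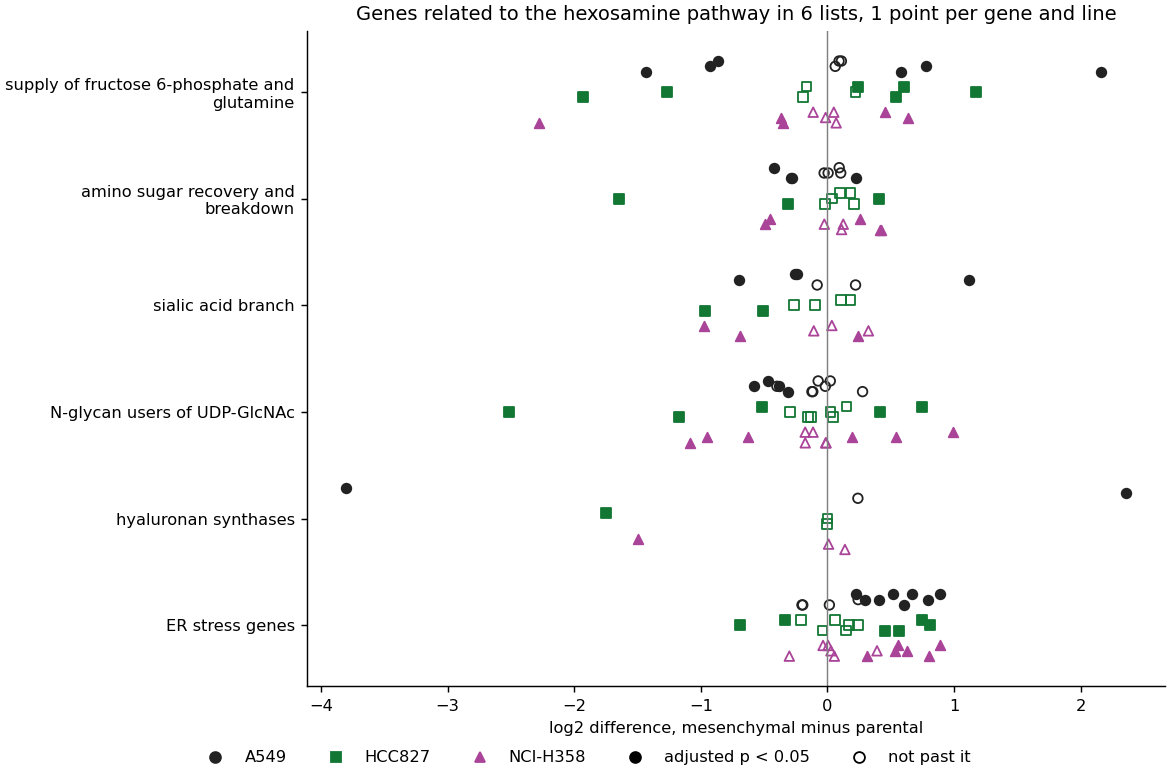
Log2 difference between mesenchymal and parental cells (x axis) of the 49 related genes in their 6 lists (y axis), with 1 point per gene and line; filled points passed limma's adjusted p below 0.05 and open points did not. The points farthest to the left are HAS3 in A549 at -3.80 and MGAT4A in HCC827 at -2.51, and HAS2 in A549 lies at 2.35.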

How the data were processed

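The deposited table held log2 expression values that the authors made, per their methods and the submitters' processing notes, by RMA (background correction, quantile normalization and probe summary) from the array intensities; the RMA version is not given in the sources used here. Each of 19849 genes had 1 probe set, and the rule that picked it is not stated. The columns were matched to samples by their titles. The values were used as deposited in 1 limma fit (limma 3.58.1, R 4.3.3) of all 18 arrays with 6 groups, 3 arrays each, and no covariate, with Benjamini-Hochberg adjustment over all genes for each comparison. A gene was called at an adjusted p below 0.05. With 3 arrays against 3, an exact permutation test cannot go below 0.1, so tests rest on the pooled spread and the number of arrays limits the precision. The procedure was run on simulated data in which a small share of genes changed strongly in 1 line. That run does not cover the smaller differences given here. The members, gene lists and tests were chosen with earlier results of these data known. From each list, up to 3 genes called in the same direction in all 3 lines were named, those with the largest mean absolute difference, and the 5 genes with the highest Pearson r with GFPT2 and with GFPT1. A gene that met this rule is counted in its list but not reported here by name. Motifs were searched in RefSeq windows of 250 bases before the start (GRCh38.p14). The alternatives were a separate fit per line, an intensity trend, leaving out genes with a mean log2 level below 5, and median centring. Others were Student's t-test, the study's thresholds, and leaving out single arrays or the 3 parental arrays whose title numbers stand apart. The study's methods name Student's t-test for data in general, whereas its arrays were analyzed with limma. The expression table names no genome build, so the only positions given are those of the printed RefSeq windows.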

Additional observations from a re-analysis of the deposited data

Results flagged for a closer look

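For the 8 genes other than GFPT2, the change upon EMT was unequal in 13 comparisons of lines when the difference was itself tested with limma; over all genes, 42.2% were called for HCC827 against A549, 42.8% for NCI-H358 against A549 and 37.9% for NCI-H358 against HCC827. Between HCC827 and A549, the change differed by -1.16 for GFPT1, 1.06 for PGM3, 2.32 for UAP1L1, -0.49 for NAGK, 0.81 for OGT and -0.55 for MGEA5. Between NCI-H358 and A549, it differed by 0.99 for PGM3, 1.28 for UAP1L1 and 0.59 for OGT. Between NCI-H358 and HCC827, it differed by 0.96 for GFPT1, 0.63 for UAP1, -1.05 for UAP1L1 and 0.32 for NAGK, the last of which was lost when single parental arrays were left out. OGT and MGEA5 moved in opposite directions in A549 and HCC827, but the MGEA5 fall in HCC827 was not called without the first parental array (-0.11, limma adjusted p = 0.239) or without any 1 of the 3 mesenchymal arrays.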

How the results depend on the processing

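No paired analysis was possible because the labels give no replicate numbers shared between groups. Of 288 alternative values for the changes of the 8 genes upon EMT, the study's thresholds aside, 266 kept their direction and their side of the threshold, 15 lost the call, 2 gained it and 5 turned direction. With the study's thresholds, 0 of the 8 genes were called in any change, difference of changes or parental comparison, 1 between mesenchymal HCC827 and A549 and 0 between the other mesenchymal pairs, and 2, 1 and 0 of the related genes in A549, HCC827 and NCI-H358. Student's t-test called 5 of the 8 genes in HCC827, without UAP1, OGT and MGEA5. With an intensity trend, and without the 3 parental arrays numbered apart, 5 genes changed unequally in NCI-H358 and A549. Leaving out single arrays gave 7 to 7 called genes of the 8 in A549, 6 to 8 in HCC827 and 5 to 6 in NCI-H358.

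Turned directions concerned small differences that passed no test. The GFPT1 change in A549 ranged from -0.012 to 0.0839 when single arrays were left out and was -0.012 without the 3 arrays numbered apart. The MGEA5 change in NCI-H358 ranged from -0.0037 to 0.119, with -0.0037 without those 3 arrays. For GNPNAT1, the difference of changes between NCI-H358 and HCC827 ranged from -0.0594 to 0.0623 and was 0.0923 without the 3 arrays, that between NCI-H358 and A549 was 0.0010 without them, and the mesenchymal difference between NCI-H358 and A549 ranged from -0.0155 to 0.0497 and was -0.0531 with centred arrays. For PGM3, the difference of changes between NCI-H358 and HCC827 ranged from -0.201 to 0.0409. The UAP1 call in HCC827 was also lost in a separate fit of the line (adjusted p = 0.109), and the MGEA5 call there in that fit (0.15) and with centred arrays (0.16). The GFPT2 rise in A549 was 1.24 with centred arrays. The cause of these moves was not tested. Without the 3 arrays numbered apart, calls were lost for UAP1 (0.16, adjusted p = 0.129) and MGEA5 (-0.11, 0.21) in HCC827 and for PGM3 between parental NCI-H358 and A549 (-0.18, 0.0621). Calls were gained for GFPT1 in NCI-H358 (-0.25, 0.00918), for the UAP1 change in HCC827 (-0.38, 0.0179) and NCI-H358 (0.41, 0.0105) against A549, for the MGEA5 change in NCI-H358 against A549 (-0.33, 0.0129), for UAP1 in NCI-H358 against HCC827 mesenchymal (-0.26, 0.00667) and A549 parental cells (0.23, 0.0428), and for MGEA5 in mesenchymal HCC827 against A549 (0.15, 0.0484). Differences near the spread of 3 arrays are beyond what these data resolve.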
